A study of Mus musculus with 12 samples.

Results

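The genes of antigen presentation by major histocompatibility complex (MHC) class I and class II were examined in the RNA-Seq of mouse proximal colon. They were taken by symbol from a list of 41 genes, 15 for class II and 26 for class I, and all 41 were found among the 55376 genes of the count table. The 2 classes were kept apart. Of the members, 13 class II genes and all 26 class I genes passed the filter on low counts (at least 1 CPM, the count scaled to library size, in at least 4 libraries), as did 15952 genes in all. H2-Eb2 and H2-Oa did not pass it and are given as levels, and H2-Oa also in a ratio. The study compared 6 EPR fl/fl mice with 6 EPR cKO mice, all 12 weeks old, with 1 library per animal from whole frozen tissue of the proximal colon. EPR is a long noncoding RNA of epithelial tissues, listed in the table as Smim31. Both groups carry EPR alleles with loxP sites, made in embryonic stem cells and bred to C57BL/6 mice, and the labels also call the EPR fl/fl group wt. EPR cKO mice carry in addition the CDX2P-NLS Cre transgene, in which a promoter of the human CDX2 gene drives Cre recombinase in intestinal epithelium, so that the deletion was made in epithelial cells while the RNA came from all cells of the wall.

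MHC class II molecules are pairs of an alpha and a beta chain that show peptides from the endosomes to CD4+ T cells. They are made by dendritic cells, B cells and macrophages, and intestinal epithelial cells can also make them when interferon gamma is present. The invariant chain, Cd74, guides the pair to the endosome, H2-DM loads the peptide, H2-O restrains H2-DM, and the protein Ciita switches the whole set on. Class I molecules consist of a heavy chain and B2m, are present on nearly all cells, and show peptides cut by the proteasome and carried into the endoplasmic reticulum by Tap1 and Tap2. Nlrc5 does for class I genes what Ciita does for class II.

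Of the 41 members, 27 lie in the MHC between chr17:33919332-37274484 of GRCm38 (mm10), a span of 3.36 Mb, and 14 lie on 11 other chromosomes. A promoter window of 300 bases, from 250 before to 50 after the start of the gene in RefSeq (GRCm38.p6), was at hand for 30 members, 10 of class II and 20 of class I. Class II promoters are known for an X box and a Y box, which bind the complex that recruits Ciita, and class I promoters carry related boxes. The letters CTGATTGG (Y box) and ACNGATG (core of the X box) were searched on both strands, and no 2 matches overlapped in the stretches printed here. The Y box letters were present in 4 of 12 class II windows and 8 of 22 class I windows, against 4.10% of all 32851 windows. Some members had more than 1 window, and overlapping windows can hold the same match, as in H2-K1. By gene, the Y box letters were present for 4 of 10 class II and 7 of 20 class I members. The X box letters were present in 6 of 12 class II and 7 of 22 class I windows, against 9.85% of all windows, and both together in 4 of 12 and 3 of 22, against 0.35%. The 200 bases before the start are shown for 4 members, on the strand of the gene, with matches to either motif in capitals. These genes show the range from matches to both motifs close together to a match to 1 motif alone. A box whose letters differ from these would not be marked.
H2-Eb1 (chr17:34305667-34305866, + strand): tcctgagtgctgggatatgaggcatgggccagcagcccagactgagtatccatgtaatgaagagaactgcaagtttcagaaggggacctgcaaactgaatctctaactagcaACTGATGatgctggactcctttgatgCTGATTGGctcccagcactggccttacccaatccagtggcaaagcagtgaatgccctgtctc
H2-DMb1 (chr17:34152991-34153190, + strand): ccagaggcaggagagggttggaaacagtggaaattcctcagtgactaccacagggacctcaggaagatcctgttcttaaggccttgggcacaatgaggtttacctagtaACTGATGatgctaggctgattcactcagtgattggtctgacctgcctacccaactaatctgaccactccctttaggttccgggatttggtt
H2-Aa (chr17:34287824-34288023, − strand): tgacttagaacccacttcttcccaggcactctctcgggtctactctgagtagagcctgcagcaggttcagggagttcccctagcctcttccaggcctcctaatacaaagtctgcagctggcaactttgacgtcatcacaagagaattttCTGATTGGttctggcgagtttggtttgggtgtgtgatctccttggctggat
H2-D1 (chr17:35262894-35263093, + strand): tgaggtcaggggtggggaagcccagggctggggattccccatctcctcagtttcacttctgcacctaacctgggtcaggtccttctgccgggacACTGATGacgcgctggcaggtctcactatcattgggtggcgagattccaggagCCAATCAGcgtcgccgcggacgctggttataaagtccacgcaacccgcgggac
In H2-Eb1 the X box letters began 88 bases and the Y box letters 62 bases before the start, with 19 bases between them. H2-DMb1 held the X box letters alone in this stretch and H2-Aa the Y box letters alone. The window of H2-Aa counts among those with both because X box letters stood at −232 from the start, on the other strand. In the other class II windows with both, the X and Y box letters stood at −129 and −103 (H2-Eb2) and at −137 and −46 (H2-Oa). In the class I gene H2-D1 the Y box letters stood on the other strand, with 46 bases between the boxes. The letters of an interferon response element, GAAANNGAA, were present in 0 of 12 class II and 5 of 22 class I windows (8.56% of all windows). A match is only a match of letters and was not tested for binding.

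EPR itself had 21.2 to 58.0 CPM in the EPR fl/fl libraries and 0 to 0.423 CPM in EPR cKO, where the deletion removes the promoter and exon 1 and other exons would still be counted. The log2 fold change was −8.09 (SE 0.47, edgeR adjusted p = 1.61e-06), so the labels and the targeted gene went together in all 12 libraries. Library totals ranged from 13093904 to 33211041 counts, and the 39 tested members had from 8 to 30610 counts in a library. At an adjusted p under 0.05, 251 genes (1.57%) were lower and 141 (0.884%) higher in EPR cKO, and 27 genes (0.169%) were lower past the stricter thresholds of the study on adjusted p and fold change. Markers of colon epithelium were at high level in every library, and of 5 small intestine genes Lct, Apoa4 and Defa24 stayed under 1 CPM, while Sis was at 5.36 to 64.5 CPM in EPR fl/fl mice and 20.4 to 35.7 CPM in EPR cKO mice, and Fabp6 at 2.34 to 17.3 and 0.439 to 2.34 CPM. The library EPR cKO 1 stood apart by its muscle: the summed level of 6 smooth muscle genes was 8100 CPM there, 872 to 2340 CPM in EPR cKO 2 to 6 and 2700 to 4760 CPM in EPR fl/fl. Without EPR cKO 1, 14.4% of all genes were lower at an adjusted p under 0.05, so results that depend on this library are given with and without it.

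None of the 13 tested class II members passed an adjusted p under 0.05 in either direction with edgeR, and none of the 41 members lay with all 6 libraries of a group above all 6 of the other (2.47% of tested genes did). At an unadjusted p under 0.05, 7 class II members had lower means in EPR cKO (H2-Aa, H2-Ab1, H2-Eb1, H2-DMa, Cd74, Ciita and Lgmn) and 0 had higher means. With limma-voom 0 passed the adjusted and 3 the unadjusted level, and with the DESeq2 Wald test, which covered all 15 members, 1 and 7 did. Over all genes, 7.12% were lower and 11.1% higher at that level. H2-Aa, H2-Ab1, H2-Eb1, H2-DMa and Ciita correlated with Cd74 at 0.976 to 0.990 over the 12 libraries (Pearson, log2 CPM). The count of members therefore does not stand for independent genes. The log2 fold changes of the 13 members ranged from −1.29 to 0.52, with 11 below 0 and a median of −0.83, while the median over all tested genes was 0.02. Fewer cells that make a transcript and less of it per cell cannot be told apart in whole tissue.

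The classical class II chains were among the class II members with the largest differences. H2-Aa, the alpha chain of I-A, was at 461, 67.2, 82.1, 385, 385 and 299 CPM in EPR fl/fl replicates 1 to 6 and at 74.1, 80.9, 100, 105, 226 and 101 CPM in EPR cKO replicates 1 to 6. EPR fl/fl 1, 4, 5 and 6 lay above every EPR cKO library, while EPR fl/fl 2 and 3 lay among the lowest. The means were 280 ± 167 CPM (SD, n = 6) and 115 ± 55.9 CPM (SD, n = 6), a log2 fold change of −1.29 (SE 0.46, edgeR adjusted p = 0.167).

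H2-Ab1, the beta chain of I-A, was at 334, 57.2, 69.3, 270, 256 and 264 CPM in EPR fl/fl mice and at 71.7, 70.3, 93.8, 88.5, 174 and 95.3 CPM in EPR cKO. H2-Eb1, the beta chain of I-E, was at 225, 51.2, 49.4, 201, 193 and 203 CPM in EPR fl/fl mice and at 54.6, 64.3, 77.3, 71.8, 121 and 74.5 CPM in EPR cKO. Both genes repeated the split seen in H2-Aa, with EPR fl/fl 1, 4, 5 and 6 above every EPR cKO library, EPR fl/fl 2 and 3 low, and EPR cKO 5 the highest of its group. Its log2 fold change was −1.07 for H2-Ab1 (SE 0.41, edgeR adjusted p = 0.195) and −0.99 for H2-Eb1 (SE 0.37, edgeR adjusted p = 0.188). When 1 library was left out at a time, the log2 fold change of H2-Aa stayed between −1.60 and −1.10, and its lowest adjusted p was 0.0745, without EPR fl/fl 2. H2-Eb2, a second beta chain gene of the I-E type, had 0.259 to 1.07 CPM in EPR fl/fl mice and 0.220 to 1.01 CPM in EPR cKO.

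**Figure D1:**
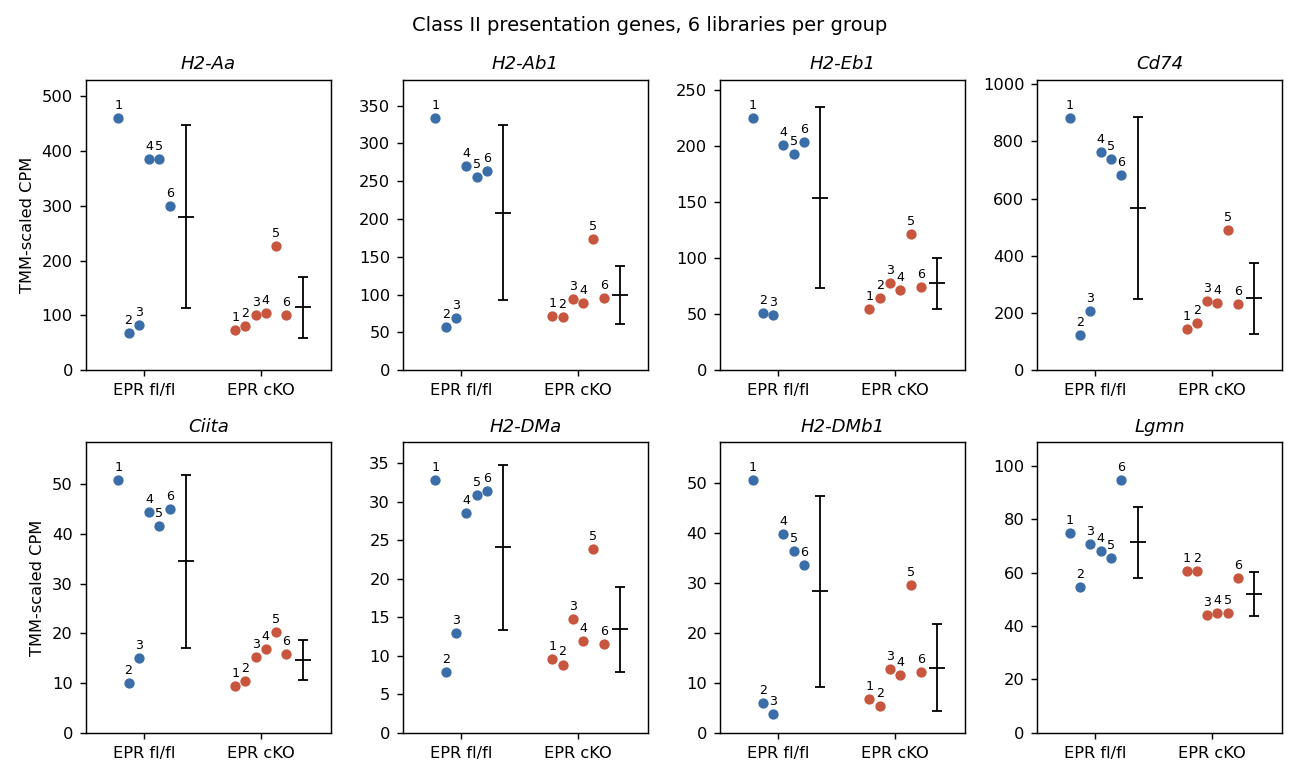
TMM-scaled CPM (vertical axes, linear, from 0) of 8 class II presentation genes in the 6 EPR fl/fl (blue) and 6 EPR cKO (red) libraries, where numbers are replicates and the black marks are mean ± SD. In H2-Aa, EPR fl/fl 1, 4, 5 and 6 lie between 299 and 461 CPM and EPR fl/fl 2 and 3 at 67.2 and 82.1 CPM, within the EPR cKO range or below it, and the same libraries are high and low in the other panels except Lgmn.

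The invariant chain Cd74 was the most abundant class II member per length, at 615 ± 345 TPM (counts scaled to gene length and library size; SD, n = 6) in EPR fl/fl mice and 263 ± 159 TPM in EPR cKO. In CPM it was at 883, 122, 208, 763, 740 and 683 in EPR fl/fl mice and at 144, 166, 241, 235, 490 and 232 in EPR cKO. Again EPR fl/fl 1, 4, 5 and 6 were above all EPR cKO libraries and EPR fl/fl 2 was the lowest of all 12. The log2 fold change was −1.17 (SE 0.45, edgeR adjusted p = 0.196).

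Ciita, the transactivator of class II genes, was at 50.8, 10.0, 15.1, 44.5, 41.6 and 45.0 CPM in EPR fl/fl mice and at 9.50, 10.5, 15.3, 16.8, 20.3 and 15.9 CPM in EPR cKO. The same 4 EPR fl/fl libraries were the high ones, and the 8 others lay within 9.50 to 20.3 CPM. Its log2 fold change was −1.22 (SE 0.36, edgeR adjusted p = 0.102). The call depended on the setting. Ciita was lower at an adjusted p of 0.0228 with the DESeq2 Wald test (which called 2.54% of genes lower), at 0.0251 without EPR fl/fl 2 (1.45% of genes lower) and at 0.0459 without EPR cKO 1 (14.4% of genes lower).

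Among the loading factors, H2-DMa and H2-DMb1, which form H2-DM, followed the chains. H2-DMa had 24.1 ± 10.8 CPM in EPR fl/fl mice and 13.4 ± 5.52 CPM in EPR cKO (log2 fold change −0.83, SE 0.35, edgeR adjusted p = 0.230). H2-DMb1 had 28.3 ± 19.1 and 13.0 ± 8.66 CPM (log2 fold change −1.10, SE 0.59, edgeR adjusted p = 0.339), with 3.79 CPM in EPR fl/fl 3 against 50.5 CPM in EPR fl/fl 1. H2-DMb2, a second gene for the beta chain, had 0.843 to 3.13 CPM in EPR fl/fl mice and 0.439 to 1.96 CPM in EPR cKO, and its highest library, EPR fl/fl 3, was among the lowest for H2-Aa, H2-Ab1, H2-Eb1 and H2-DMb1. H2-DMb1 and H2-DMb2 shared 22.7% and 25.9% of their 50-base stretches with other genes, mostly with each other, and their counts are uncertain to that extent.

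H2-Oa and H2-Ob form H2-O, which is known from B cells and thymus and restrains H2-DM. H2-Ob had 1.40 ± 0.299 CPM in EPR fl/fl mice and 1.37 ± 0.667 CPM in EPR cKO (log2 fold change −0.06, SE 0.28). H2-Oa had 0.0730 to 0.697 CPM in EPR fl/fl mice and 0.0549 to 0.690 CPM in EPR cKO, and 29.5% of its exon bases lie opposite the exons of BC051537. The log2 ratio of H2-Oa to H2-DMa was −5.84 ± 1.31 in EPR fl/fl mice and −5.22 ± 1.17 in EPR cKO (exact permutation test, p = 0.418, n = 6 per group).

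The 4 lysosomal members did not follow the chains. Ifi30, a reductase that opens disulfide bonds before peptides are bound, had 52.5 ± 7.19 CPM in EPR fl/fl mice and 55.2 ± 10.8 CPM in EPR cKO. The aspartic protease Ctse had 2.88 ± 1.09 and 4.13 ± 1.69 CPM (log2 fold change 0.52, SE 0.32, edgeR adjusted p = 0.398), and the cysteine protease Ctsh 45.2 ± 7.73 and 43.5 ± 3.40 CPM. Lgmn, the asparaginyl endopeptidase legumain, was at 74.9, 54.6, 70.7, 68.0, 65.3 and 94.5 CPM in EPR fl/fl mice and at 60.4, 60.4, 44.2, 44.7, 45.0 and 57.9 CPM in EPR cKO. In Lgmn only EPR fl/fl 2 reached into the EPR cKO range, and the log2 fold change of −0.45 (SE 0.13) had the lowest adjusted p of all tested members, 0.0929 (edgeR). Without EPR cKO 1, Lgmn was lower at an adjusted p of 0.0184 (14.4% of genes lower).

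The gene most like Cd74 over the 12 libraries among all tested genes was H2-Aa, with a Pearson correlation of log2 CPM of 0.990, and next came H2-Ab1 (0.990), H2-DMa (0.988), Ciita (0.977) and H2-Eb1 (0.976). The 5 genes nearest to Cd74 were thus all class II members. Within the 6 EPR fl/fl libraries these correlations were 0.974 to 0.997 and within the 6 EPR cKO libraries 0.912 to 0.991, so the likeness was present in each group. Other class II members stood far from Cd74, with 0.265 for H2-DMb2, −0.132 for H2-Ob, 0.372 for Ifi30 and 0.456 for Lgmn. The likeness was not confined to class II. Class I members ranged from 0.179 for Cd1d1 to 0.900 for H2-M3, which was at rank 7 among all tested genes. The correlations are descriptive, and the points share library preparation and depth. The log2 ratio of Cd74 to H2-Ab1 within a library stayed between 1.01 and 1.58 in all 12 libraries, and its difference of −0.12 between the groups did not pass the test (exact permutation test, p = 0.271, n = 6 per group).

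Among 13 other genes of the class II pathway, none passed an adjusted p under 0.05 and the median log2 fold change was −0.02. They were the endosomal proteases, the DNA-binding factors at the X and Y boxes and 2 ubiquitin ligases of class II. Rfx5, which binds the X box, had 16.2 ± 0.931 CPM in EPR fl/fl mice and 15.2 ± 0.890 CPM in EPR cKO (log2 fold change −0.09, adjusted p = 0.522, edgeR). Ctss, which cleaves the invariant chain in many antigen-presenting cells, had 190 ± 30.5 and 213 ± 25.0 CPM (log2 fold change 0.16, adjusted p = 0.454, edgeR). Ctsl, which does so in thymic epithelium, differed most, with 127 ± 19.6 and 92.2 ± 16.7 CPM (log2 fold change −0.46, adjusted p = 0.0836, edgeR), and was lower at an adjusted p of 0.0334 with the DESeq2 Wald test, at 0.0445 without EPR fl/fl 2 and at 0.00523 without EPR cKO 1.

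**Figure D2:**
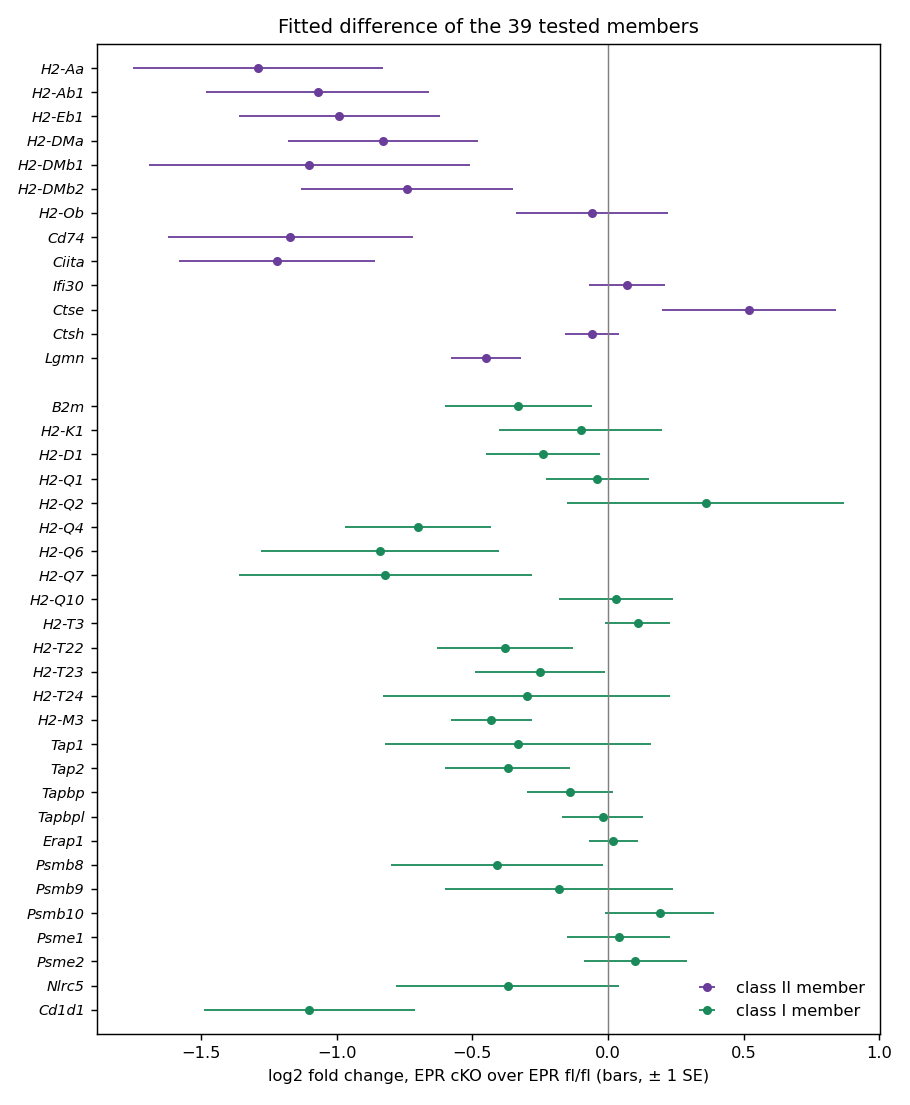
Log2 fold change of EPR cKO over EPR fl/fl (horizontal axis, points with bars of ± 1 SE from edgeR) for the 13 tested class II (purple) and 26 class I (green) members. The classical class II chains, Cd74 and Ciita lie between −1.29 and −0.99, most class I members lie nearer to 0, and no member passed an adjusted p under 0.05.

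None of the 26 class I members passed an adjusted p under 0.05 with edgeR, limma-voom or the DESeq2 Wald test. At an unadjusted p under 0.05, 3 had lower means in EPR cKO (H2-Q4, H2-M3 and Cd1d1) and 0 had higher means with edgeR, against 7.12% of all genes lower and 11.1% higher, and 2 members passed that level with limma-voom and 4 with DESeq2. The log2 fold changes ranged from −1.10 to 0.36, with 19 below 0 and 7 above, and the median was −0.25. The lowest adjusted p was 0.167.

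B2m, the light chain of all class I molecules, was the most abundant member per length, at 1240 ± 540 TPM in EPR fl/fl mice and 940 ± 373 TPM in EPR cKO. It was at 967, 317, 448, 604, 688 and 1170 CPM in EPR fl/fl mice and at 428, 530, 563, 445, 607 and 755 CPM in EPR cKO. The EPR fl/fl group held both the highest library, EPR fl/fl 6, and the lowest, EPR fl/fl 2, and all EPR cKO libraries lay between them. The log2 fold change was −0.33 (SE 0.27, edgeR adjusted p = 0.527), and ± 1.96 SE ran from −0.87 to 0.20.

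The classical heavy chains H2-K1 and H2-D1 present most peptides to CD8+ T cells. H2-K1 was at 1280, 533, 347, 961, 1090 and 1540 CPM in EPR fl/fl mice and at 673, 887, 1030, 705, 952 and 1140 CPM in EPR cKO. H2-D1 was at 1110, 495, 852, 747, 859 and 1340 CPM in EPR fl/fl mice and at 611, 755, 854, 584, 772 and 1010 CPM in EPR cKO. For both, the EPR cKO libraries lay inside the EPR fl/fl range. The log2 fold changes were −0.10 for H2-K1 (SE 0.30, edgeR adjusted p = 0.880) and −0.24 for H2-D1 (SE 0.21, edgeR adjusted p = 0.561), with ± 1.96 SE from −0.68 to 0.49 and from −0.65 to 0.17, and that of H2-K1 was above 0 with limma-voom, at 0.01.

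The 11 nonclassical heavy chains, which present special peptides or act on innate lymphocytes, ranged in log2 fold change from −0.84 to 0.36. H2-Q4 had 62.0 ± 27.5 CPM in EPR fl/fl mice and 38.1 ± 8.47 CPM in EPR cKO (log2 fold change −0.70, SE 0.27, edgeR adjusted p = 0.195). H2-Q6 and H2-Q7, the Qa-2 genes, had 38.0 ± 30.3 and 31.7 ± 27.6 CPM in EPR fl/fl mice and 21.1 ± 6.39 and 17.8 ± 7.38 CPM in EPR cKO, and in both 1 library, EPR fl/fl 6, held the highest values of 94.0 and 79.3 CPM. Without EPR fl/fl 6 their log2 fold changes were −0.34 and −0.30 in place of −0.84 and −0.82. H2-M3, which presents formylated peptides, had 8.40 ± 1.83 and 6.22 ± 0.644 CPM (log2 fold change −0.43, SE 0.15, edgeR adjusted p = 0.171). H2-T23, the Qa-1 chain that binds leader peptides of class I, had 347 ± 125 and 291 ± 78.1 CPM, and H2-T3, the thymus leukemia antigen made in gut epithelium, 75.9 ± 12.4 and 81.6 ± 12.9 CPM. H2-T22, H2-T24, H2-Q1 and H2-Q10 had log2 fold changes between −0.38 and 0.03 with adjusted p between 0.425 and 0.956 (edgeR).

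H2-Q2 had a pattern of its own. It was at 169, 93.9, 5.63, 167, 160 and 197 CPM in EPR fl/fl mice and at 146, 156, 183, 149, 205 and 176 CPM in EPR cKO. EPR fl/fl 3 stood at 5.63 CPM while the 11 other libraries lay between 93.9 and 205 CPM. The same library had the lowest H2-K1 (347 CPM), H2-Q7 (5.88 CPM), H2-Q10 (5.94 CPM) and H2-DMb1 (3.79 CPM) of all 12, yet the second highest H2-Q4 (88.8 CPM). The log2 fold change of H2-Q2 was 0.36 (SE 0.51, edgeR adjusted p = 0.719) with EPR fl/fl 3 and 0.10 without it. Some heavy chain genes are near copies of each other, so reads may be split between them. Of the 50-base stretches, 53.5% of H2-T22, 36.4% of H2-Q4, 35.0% of H2-Q6 and 26.5% of H2-Q7 also occur in other genes. The share was 16.1% for H2-Q2 and 9.63% for H2-K1, but 3.17% for H2-T24, 0.926% for H2-T3 and 0.576% for H2-M3.

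**Figure D3:**
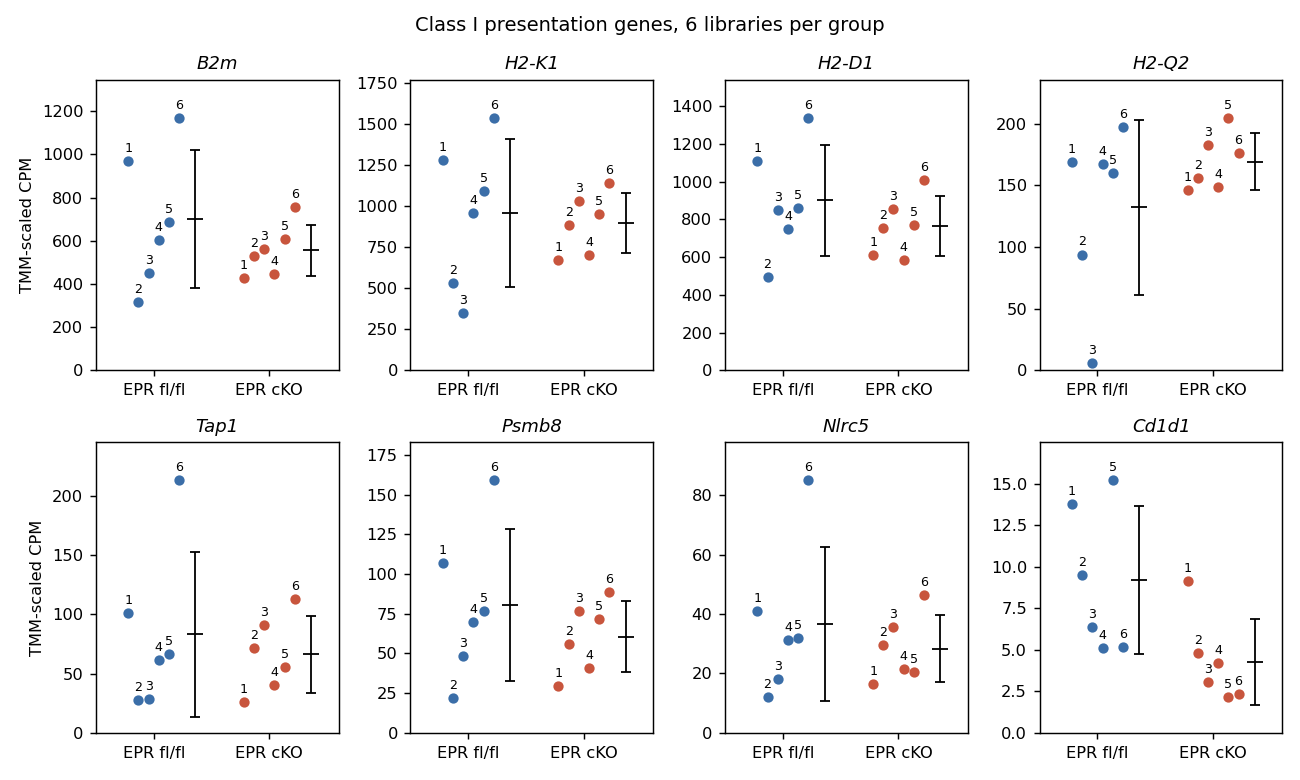
TMM-scaled CPM (vertical axes, linear, from 0) of 8 class I presentation genes in the 6 EPR fl/fl (blue) and 6 EPR cKO (red) libraries, where numbers are replicates and the black marks are mean ± SD. EPR fl/fl 6 is the highest library for B2m (1170 CPM), Tap1 (213 CPM), Psmb8 (159 CPM) and Nlrc5 (85.0 CPM), and EPR fl/fl 3 is at 5.63 CPM for H2-Q2.

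Of the transport and loading factors, Tap1, a subunit of the peptide pump, was at 101, 27.6, 28.6, 61.8, 66.3 and 213 CPM in EPR fl/fl mice and at 26.3, 71.6, 90.9, 40.4, 55.4 and 113 CPM in EPR cKO. The groups overlapped almost completely, with EPR fl/fl 6 far above the rest (log2 fold change −0.33, SE 0.49, edgeR adjusted p = 0.732). Without EPR fl/fl 6 it was 0.22. Tap2, the other subunit, had 51.3 ± 20.1 CPM in EPR fl/fl mice and 39.5 ± 7.70 CPM in EPR cKO. Tapbp, which bridges the pump and the heavy chain, had 273 ± 65.4 and 247 ± 38.4 CPM, its relative Tapbpl 36.3 ± 7.63 and 35.8 ± 6.08 CPM, and Erap1, which trims peptides, 121 ± 10.6 and 122 ± 14.5 CPM. Erap1 had the smallest SE of the class I members, 0.09, with ± 1.96 SE of its log2 fold change from −0.15 to 0.19.

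Psmb8, Psmb9 and Psmb10 replace the constitutive catalytic subunits Psmb5, Psmb6 and Psmb7 in the immunoproteasome. Psmb8 was at 107, 22.2, 48.4, 69.8, 76.5 and 159 CPM in EPR fl/fl mice and at 29.8, 55.9, 76.7, 41, 71.6 and 88.9 CPM in EPR cKO (log2 fold change −0.41, SE 0.39, edgeR adjusted p = 0.596). The 2 groups overlapped over most of this range. Psmb9 had 32.7 ± 22.1 and 28.8 ± 12.1 CPM and Psmb10 93.2 ± 29.3 and 106 ± 24.6 CPM. The log2 ratio of Psmb8 to Psmb5 was 0.72 ± 0.94 in EPR fl/fl mice and 0.23 ± 0.42 in EPR cKO, and ranged over 2.71 between libraries. The difference of −0.49 did not pass the test (exact permutation test, p = 0.271, n = 6 per group), nor did those of Psmb9 to Psmb6 (−0.17, p = 0.725) and Psmb10 to Psmb7 (−0.01, p = 0.965). Adjusted over the 5 ratios tested, these exact permutation p-values were 0.676, 0.906 and 0.965, and those of H2-Oa to H2-DMa and Cd74 to H2-Ab1 were 0.696 and 0.676. The proteasome activator subunits Psme1 and Psme2 had log2 fold changes of 0.04 and 0.10 (adjusted p = 0.916 and 0.787, edgeR).

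Nlrc5, the transactivator of class I genes, was at 41.1, 12.0, 18.0, 31.3, 32.0 and 85.0 CPM in EPR fl/fl mice and at 16.3, 29.6, 35.5, 21.4, 20.5 and 46.5 CPM in EPR cKO. EPR fl/fl 6 was again the highest library, and EPR fl/fl 2 the lowest (log2 fold change −0.37, SE 0.41, edgeR adjusted p = 0.644). Cd1d1, which presents lipids to natural killer T cells, was at 13.8, 9.50, 6.39, 5.09, 15.2 and 5.15 CPM in EPR fl/fl mice and at 9.12, 4.78, 3.05, 4.19, 2.18 and 2.34 CPM in EPR cKO. Here EPR cKO 1 was the highest of its group and inside the EPR fl/fl range, and the other 5 EPR cKO libraries lay below every EPR fl/fl library. Its log2 fold change was −1.10 (SE 0.39, edgeR adjusted p = 0.167) with all libraries and −1.48 without EPR cKO 1. In that fit Cd1d1 was lower at an adjusted p of 0.011 (14.4% of genes lower). EPR fl/fl 1, 2 and 5, the highest for Cd1d1, also had the highest summed levels of 4 adipocyte genes (964, 564 and 732 CPM). EPR cKO 1 had the highest such sum of its group (549 CPM). The part of fat in the level of Cd1d1 was not tested. Of the 50-base stretches of Cd1d1, 19.1% also occur in Cd1d2, which had at most 3 counts in a library.

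Among 18 other genes of the class I pathway, of which 15 were tested, none passed an adjusted p under 0.05, and the median log2 fold change was −0.14. The largest was that of H2-T10, a heavy chain close to H2-T22, with 3.27 ± 1.23 CPM in EPR fl/fl mice and 1.86 ± 0.326 CPM in EPR cKO (log2 fold change −0.81, adjusted p = 0.120, edgeR). H2-T10 was lower at an adjusted p of 0.0445 without EPR fl/fl 2 and of 0.0404 without EPR cKO 1.

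The members varied more among the EPR fl/fl mice than among the EPR cKO mice. The SD of log2 CPM was larger in EPR fl/fl for 10 of 13 class II members and 24 of 26 class I members, against 38.5% of all tested genes. Its median was 0.86 in EPR fl/fl mice and 0.51 in EPR cKO for class II, 0.57 and 0.31 for class I, and 0.22 and 0.25 over all tested genes. For Cd74 it was 1.20 and 0.61, and for Tap1 1.12 and 0.77. The standard error was larger too, with a median of 0.36 for class II and 0.24 for class I members against 0.14 over all tested genes. Many members shared their extreme libraries, so these counts do not stand for independent genes. Of the 26 class I members, EPR fl/fl 6 was the highest of all 12 libraries for 22 and EPR fl/fl 2 the lowest for 12. The difference in spread is a description and was not tested.

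**Figure D4:**
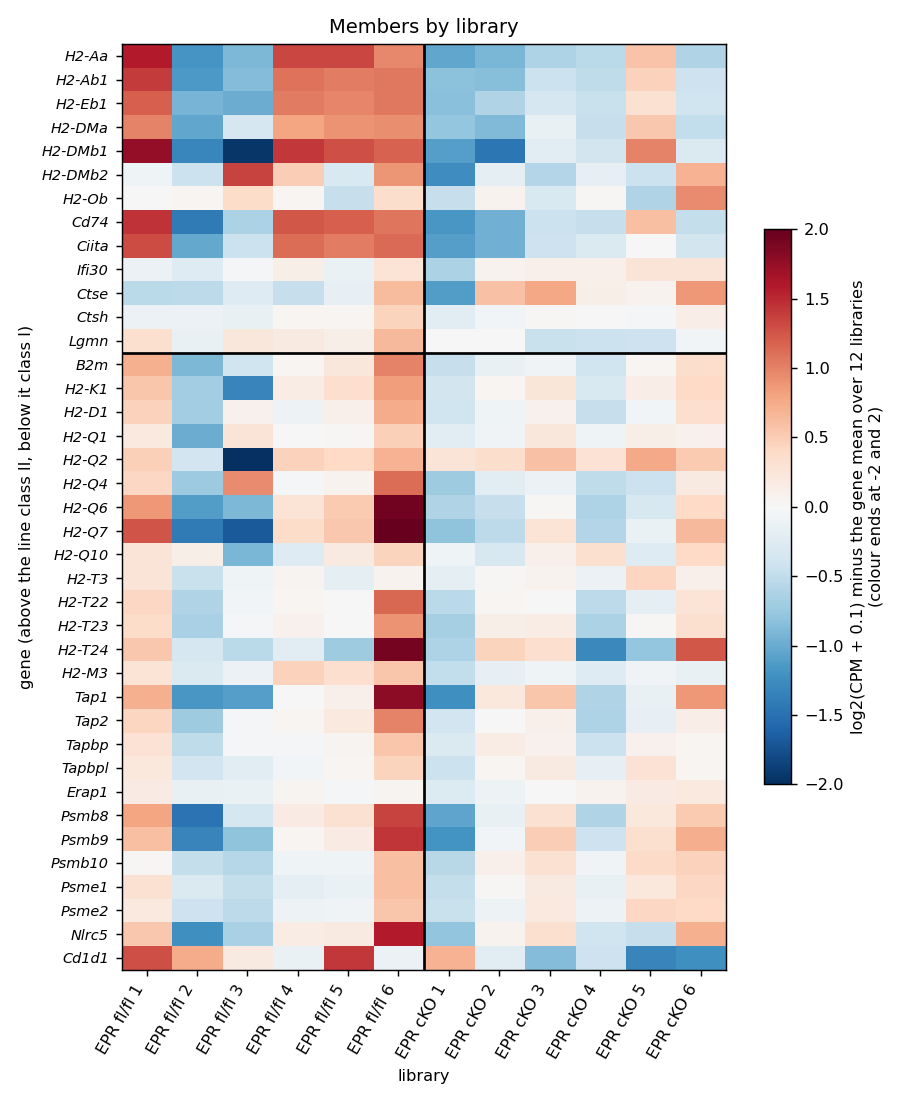
Log2(CPM + 0.1) of the 39 tested members minus the mean of each gene over the 12 libraries (colour, red above and blue below the mean, ending at −2 and 2), with class II above and class I below the horizontal line and EPR fl/fl left and EPR cKO right of the vertical line. The class II chains, Cd74 and Ciita are red in EPR fl/fl 1, 4, 5 and 6, and most class I members are reddest in EPR fl/fl 6, which was the highest library for 22 of 26.

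The highest library was not the same in the 2 classes. EPR fl/fl 1 was the highest of all 12 for 7 of 13 tested class II members, and EPR fl/fl 6 for 22 of 26 class I members. EPR fl/fl 2 was the lowest of all 12 for 12 class I members and 4 class II members, and EPR cKO 1 for 6 and 5. The summed level of the 15 class II members was 2210, 466, 611, 1910, 1850 and 1790 CPM in EPR fl/fl mice and 506, 573, 709, 692, 1240 and 724 CPM in EPR cKO. For the 26 class I members it was 5570, 2510, 3060, 4080, 4430 and 7100 CPM in EPR fl/fl mice and 2980, 3940, 4400, 3150, 4250 and 5050 CPM in EPR cKO. In both sums EPR fl/fl 1, 4, 5 and 6 lay above EPR fl/fl 2 and 3, and EPR cKO 1 was the lowest of its group. B2m and Cd74 had a Pearson correlation of log2 CPM of 0.779 over all libraries, 0.862 within EPR fl/fl and 0.459 within EPR cKO. EPR fl/fl 4 and 5 and EPR cKO 3 and 5 had class I sums between 4080 and 4430 CPM, while their class II sums were 1910, 1850, 709 and 1240 CPM. At lower class I sums, EPR fl/fl 3 (3060 CPM) and EPR cKO 1 and 4 (2980 and 3150 CPM) had class II sums of 611, 506 and 692 CPM. Both sets of libraries were chosen after their values were seen.

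**Figure D5:**
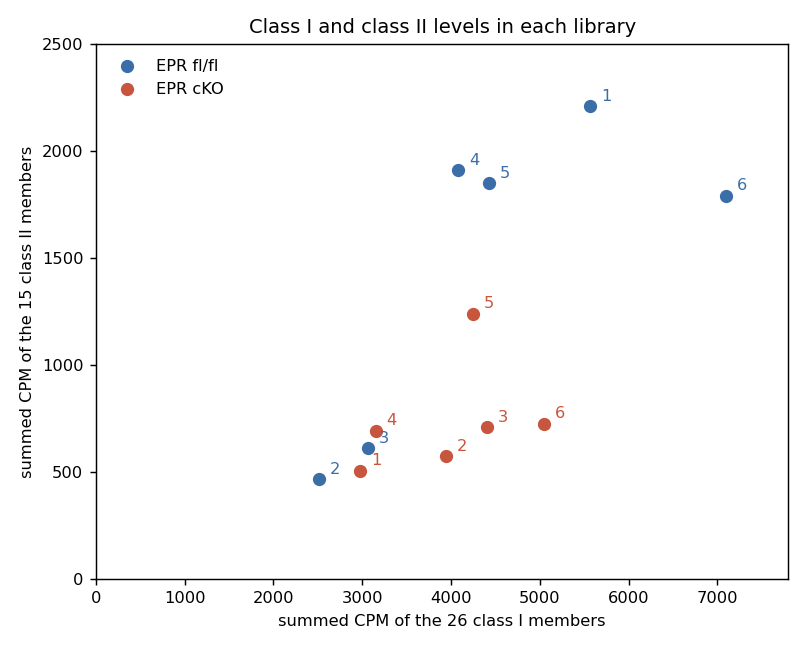
Summed TMM-scaled CPM of the 26 class I members (horizontal axis) and the 15 class II members (vertical axis) in each library, with EPR fl/fl in blue, EPR cKO in red and replicate numbers beside the points. EPR fl/fl 1, 4, 5 and 6 lie at 1790 to 2210 CPM for class II, the 8 other libraries at 466 to 1240, and the EPR cKO libraries lie inside the EPR fl/fl range on both axes.

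Interferon gamma induces Ciita, Nlrc5, the immunoproteasome and the heavy chains, in part through Irf1. Ifng itself had 0.0324 to 0.858 CPM in EPR fl/fl, highest in EPR fl/fl 6, and 0 to 0.372 CPM in EPR cKO. Its means were 0.291 ± 0.306 and 0.179 ± 0.124 CPM, and it was not tested. Of 26 genes of the interferon gamma pathway, 25 were tested and none passed an adjusted p under 0.05. Their median log2 fold change was −0.39, with 19 below 0. Irf1 had 198 ± 57.8 CPM in EPR fl/fl mice and 196 ± 39.7 CPM in EPR cKO (log2 fold change −0.01, adjusted p = 0.978, edgeR; the sign turned with limma-voom, 0.01). The largest difference was that of Ido1, the tryptophan-degrading enzyme, with 32.5 ± 24.2 and 9.91 ± 5.73 CPM (log2 fold change −1.71, adjusted p = 0.107, edgeR), which was lower at an adjusted p of 0.0156 with the DESeq2 Wald test and of 0.0482 without EPR cKO 1. The summed level of the list was 1040 to 2480 CPM in EPR fl/fl, highest in EPR fl/fl 6, and 1180 to 1700 CPM in EPR cKO.

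None of the tested markers of the cells that present antigen passed an adjusted p under 0.05. The 10 macrophage markers summed to 131 to 350 CPM in EPR fl/fl mice and 112 to 242 CPM in EPR cKO, with a median log2 fold change of −0.34, and the largest single difference was that of Mrc1 (−0.54, adjusted p = 0.330, edgeR). The 9 dendritic cell markers, of which 4 were tested, summed to 9.96 to 30.7 and 11.2 to 17.3 CPM (median −0.32, and Flt3 −0.59 with adjusted p = 0.319, edgeR). The defining markers Xcr1, Clec9a and Siglech were under 2 CPM and were not tested. Clec9a was at 0.822 to 1.43 CPM in EPR fl/fl mice and 0.265 to 0.677 CPM in EPR cKO. Siglech was at 0.316 to 0.778 and 0 to 0.265 CPM, and Xcr1 at 0.324 to 1.13 and 0.265 to 1.1 CPM. The 8 B cell markers summed to 2.85 to 15.9 and 1.76 to 16.7 CPM, with 3 tested (median −0.02, and Cd79a −0.16 with adjusted p = 0.872, edgeR). The 2 libraries with the highest B cell sums, EPR fl/fl 3 (15.9 CPM) and EPR cKO 6 (16.7 CPM), had class II sums of 611 and 724 CPM. The 7 T cell markers summed to 13.8 to 53.3 and 15.2 to 42.4 CPM (median −0.09, and Cd8b1 −0.83 with adjusted p = 0.383, edgeR). EPR fl/fl 6, the highest library for 22 class I members, also had the highest sums of macrophage (350 CPM), dendritic cell (30.7 CPM) and T cell (53.3 CPM) markers. EPR fl/fl 2, the lowest for 12, had the lowest T cell sum (13.8 CPM), but a macrophage sum of 169 CPM, inside the range of its group, and a dendritic cell sum of 17.5 CPM, the second highest of the 12 libraries. The part of these cells in the levels of the members was not tested.

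Of 5 markers of group 3 innate lymphoid cells, which can carry class II, 3 were tested and 1 passed: Kit, with 107 ± 28.5 CPM in EPR fl/fl mice and 45.2 ± 15.4 CPM in EPR cKO (log2 fold change −1.25, SE 0.21, edgeR adjusted p = 0.0074). Kit also marks the pacemaker cells of the gut muscle and mast cells. Il22, a cytokine of group 3 innate lymphoid cells, had at most 1 count in any library. Costimulatory genes (4, of which 3 were tested) had a median log2 fold change of −0.21, the largest being that of Cd40 (−0.58, adjusted p = 0.424, edgeR).

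In the other tissue lists, Muc2 alone passed an adjusted p under 0.05. The 8 epithelial markers had a median log2 fold change of 0.28, led by Krt20 (0.44, adjusted p = 0.207, edgeR), and sums of 7020 to 11000 CPM in EPR fl/fl mice and 8670 to 13500 CPM in EPR cKO. The 6 markers of colon epithelium had a median of 0.35, and Muc2, the mucin of goblet cells, was the 1 gene called, with 8010 ± 3580 and 1760 ± 350 CPM (log2 fold change −2.19, adjusted p = 0.000741, edgeR). Of 5 small intestine genes 2 were tested, and the largest difference was that of Fabp6 (−2.02, adjusted p = 0.0515, edgeR). The medians were −0.55 for smooth muscle, with Acta2 at −0.66 (adjusted p = 0.470, edgeR), and −0.27 for endothelium, with Cdh5 at −0.56 (adjusted p = 0.376, edgeR). Adipocyte genes had a median of −1.47, Adipoq being at −1.73 (adjusted p = 0.137, edgeR), with sums of 263 to 964 CPM in EPR fl/fl mice and 42.2 to 549 CPM in EPR cKO. The part of fat, muscle and epithelium in the values of the presentation genes was not tested.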

How the data were processed

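RNA-Seq of total RNA from the proximal colon of 12 mice (6 EPR fl/fl and 6 EPR cKO, grouped by the sample labels) was used. The authors prepared stranded libraries depleted of ribosomal RNA, trimmed the reads, aligned them with STAR 2.5.3a to mm10 (GRCm38) and counted reads per gene with featureCounts. The deposited values were raw counts per gene, not normalized. Strand setting and treatment of reads with several alignments are not given in the sources used here, so counts of near copies and of genes opposite others are uncertain. All 12 count columns were matched to samples by name.

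Counts were tested in R 4.3.3 with edgeR 4.0.16 (quasi-likelihood F test, TMM scaling, genes of at least 1 CPM in at least 4 libraries, Benjamini-Hochberg adjustment over 15952 genes, no covariate). SE was the absolute log2 fold change divided by the square root of F. CPM values are TMM-scaled, and TPM was computed from counts and the exon length of the file. Log2 ratios used counts plus 0.5, in two-sided exact permutation tests over 924 assignments of the libraries, the smallest possible p being 0.00216. Correlations used log2 CPM with a prior count of 2. Stretches of 50 bases of each transcript were looked up in all other annotated transcripts. The fit was checked on simulated counts. DESeq2 1.42.0 (Wald test and size factors), limma 3.58.1 (voom), total counts without TMM, no filter on low counts, a replicate block and the omission of each library in turn were the alternatives. The smallest difference between 2 libraries of a group was a chi-square of 20.9 per gene, so no library was a copy of another. Full values are given for called members and for 11 members fixed by name, for called genes of the other lists and for the largest difference in each, and Ifng, Irf1, Ctss and Rfx5 were also fixed. Some items are not reported here. Other members described library by library were chosen after their values were seen. The members and lists were chosen with earlier results of these data known. Protein sequences were not used here.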

Additional observations from a re-analysis of the deposited data

Results flagged for a closer look

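A library was singled out in a group of 6 when its gap to the nearest other library as a share of the range of the group exceeded Dixon's limit for 6 libraries (on log2 CPM). Of 90 sets of 6 looked at, 7 were singled out, where chance gives about 1 in 20, or 4.5.

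H2-Aa was at 226 CPM in EPR cKO 5 against 74.1 to 105 CPM in the other EPR cKO libraries, and H2-Ab1 was at 174 CPM there against 70.3 to 95.3 CPM. Ifi30 was at 34.3 CPM in EPR cKO 1 against 55.8 to 63.8 CPM. Ctse was at 5.04 CPM in EPR fl/fl 6 against 2.19 to 2.86 CPM, and Ctsh at 60.3 CPM in the same library against 39.7 to 45.1 CPM. H2-Q1 was at 24.8 CPM in EPR fl/fl 2 against 49.3 to 69.3 CPM.

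H2-Q2 was at 5.63 CPM in EPR fl/fl 3 against 93.9 to 197 CPM in the other EPR fl/fl libraries.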

How the results depend on the processing

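The count of members lower at an adjusted p under 0.05 was 0 in both classes. For class II it was 1 with the DESeq2 Wald test (Ciita), 1 without EPR fl/fl replicate 2 (1.45% of all genes were lower) and 2 without EPR cKO replicate 1 (14.4% of all genes were lower, so that 2 of 13 is about that share), so that it ranged from 0 to 2 when 1 library was left out. For class I it ranged from 0 to 1, the 1 of 26 being Cd1d1 without EPR cKO replicate 1, below the 14.4% of all genes. No member was higher under any alternative run. EPR kept its call in all of them, with log2 fold changes from −8.85 to −7.86 when 1 library was left out. Over 234 values of the 39 tested members in fits with all libraries, 8 in 5 members turned sign, and over 468 values without 1 library, 28 in 12 members did. All of these had adjusted p of at least 0.694.

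With limma-voom the log2 fold changes that turned were 0.01 for H2-K1, 0.04 for H2-Q1, 0.02 for Tapbpl, 0.08 for Psmb9 and 0.01 for Irf1. Without TMM or without the filter, Erap1 was at −0.0046 and −0.003. With a replicate block, H2-K1 was at 0.03, H2-Q1 at 0.02 and Irf1 at 0.02, and no member was called. The labels do not say whether the replicate numbers pair the mice. The correlations of same-numbered libraries ranged from −0.242 to 0.34, and 2 of 6 correlated best with their own number, which cannot settle the question.

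When 1 library was left out, the log2 fold change of H2-Ob ranged from −0.35 to 0.06, that of Ctsh ranged from −0.09 to 0.04, that of H2-K1 ranged from −0.27 to 0.09, that of H2-Q1 ranged from −0.18 to 0.06, that of H2-Q10 ranged from −0.11 to 0.12, that of H2-T24 ranged from −0.69 to 0.34, that of Tap1 ranged from −0.54 to 0.22, that of Tapbpl ranged from −0.09 to 0.08, that of Erap1 ranged from −0.02 to 0.05, that of Psmb9 ranged from −0.36 to 0.22, that of Psme1 ranged from −0.04 to 0.19, that of Nlrc5 ranged from −0.56 to 0.08, and that of Irf1 ranged from −0.11 to 0.08. Without EPR fl/fl replicate 6, H2-T24 (0.34), Tap1 (0.22), Psmb9 (0.22), H2-K1 (0.09), Nlrc5 (0.08), Tapbpl (0.08), H2-Q1 (0.06), Ctsh (0.04) and H2-Ob (0.01) were above 0, in contrast to the fit with all libraries. The log2 ratio of Psmb9 to Psmb6 ranged from −0.46 to 0.09 and that of Psmb10 to Psmb7 from −0.09 to 0.08, and no ratio passed its test. H2-Eb2 and H2-Oa were below the filter on low counts and were not tested with it, and counting error and replicate spread were not separated. The cause of these changes was not tested.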

Other observations

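The part of chromosome 17 that holds the MHC members (chr17:33919332-37274484, GRCm38) held 140 tested genes. In EPR fl/fl 3, 10 of these (7.14%) stood apart from the other 5 EPR fl/fl libraries by Dixon's limit, against 221 of 15812 genes elsewhere (1.40%). Besides H2-Q2 they were Rps18, Btnl1, Gm15331, Btnl6 and Stk19, each below all 11 other libraries, Notch4, Ly6g6e and Gm10499, each above all 11, and Nrm. Btnl6, a butyrophilin-like gene of the gut epithelium, was at 22.4 CPM in EPR fl/fl 3 and at 136 to 241 CPM in the other 11, and Gm10499 at 26.5 CPM against 1.34 to 3.89 CPM. In EPR cKO 1, 4.29% of the genes of the region and 5.29% of the others stood apart in the same way, and the 10 other libraries had between 0 and 2.14% in the region. Of these, EPR fl/fl 2 (2.14% against 0.531%), EPR cKO 2 (0.714% against 0.196%) and EPR cKO 5 (2.14% against 0.645%) had larger shares there than elsewhere. The rest had smaller ones. The genes were named after their values were seen, and no cause was tested.

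B2m, the member with the highest level per length, was followed most closely over the 12 libraries by Il21r (Pearson correlation of log2 CPM 0.964) and Psmb8 (0.963), then by H2-Q6 (0.955), Selplg (0.952) and Il18bp (0.947). Within the 6 EPR fl/fl libraries these were 0.968 to 0.992 and within the 6 EPR cKO libraries 0.748 to 0.925. Il21r is a cytokine receptor of lymphocytes and Selplg an adhesion ligand of leukocytes. The correlations are descriptive.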
